A study of Mus musculus with 18 samples.

Results

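The 5 genes described here encode the machinery that writes and erases H3K27me3, a trimethylated lysine on the tail of histone H3: Ezh2, Suz12, Eed and Jarid2 of Polycomb repressive complex 2 (PRC2), and the H3K27 demethylase Kdm6b. Their members are all rows of 4 deposited region lists that share bases with a window around each gene on the mouse build mm9. The Ezh2 window is chr6:47470001-47556000 (86 kb), the Suz12 window chr11:79796001-79860000 (64 kb), the Eed window chr7:97093001-97142000 (49 kb), the Jarid2 window chr13:44815001-45028000 (213 kb) and the Kdm6b window chr11:69202001-69238000 (36 kb). The windows held 21 of the 60531 regions in the lists: 10 of H3K4me3, 5 of H3K9ac, 6 Notch1 peaks and 0 of H3K27me3. Kdm6b had 8 regions, Jarid2 6, Eed 4, Ezh2 2 and Suz12 1.

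The study compared normal CD4+ CD8+ double-positive (DP) thymocytes with mouse T cell acute lymphoblastic leukaemia (T-ALL), tumours that overexpress Notch1-IC, the active intracellular form of the receptor Notch1. Of the 18 chromatin immunoprecipitation (ChIP-seq) and input libraries, 8 came from DP cells and 10 from T-ALL, with 2 libraries per cell type for each of H3K27me3, H3K4me3 and H3K9ac and 1 T-ALL library for Notch1. The strain, age, promoter or vector behind the Notch1-IC overexpression, and whether animals were pooled, are not given by the labels. Each histone list compares T-ALL with DP cells and shows every region in green or red. Neither the labels nor the headers tie a colour to T-ALL or to DP, so colours are reported as they stand. They also do not say whether a colour has the same meaning in each list. Equal or opposite colours in 2 lists are therefore no statement about the direction of the marks. The lists hold positions only, with no fold change, p-value or value per library. The depth is therefore unknown, no spread between replicates exists to set beside a count, and no test was made. Neither the expression of the 5 genes nor the identity of the cells could be checked from region lists. A gene without a region in a list had no region there that entered the comparison's list, which does not show that the mark was missing.

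PRC2 places methyl groups on H3K27, and the trimethylated form marks silenced developmental genes. Ezh2 carries the catalytic SET domain, Suz12 and Eed are core subunits without which the enzyme is inactive, and Eed also binds the finished H3K27me3 mark. Jarid2 is an accessory subunit that helps to bring the complex to its targets. Kdm6b (also called Jmjd3) removes methyl groups from H3K27, and EZH2 and SUZ12 are recurrently lost in human T-ALL. H3K4me3 marks active promoters, H3K9ac marks active promoters and enhancers, and Notch1 reaches DNA through the factor RBPJ.

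The promoters of the PRC2 genes are shown because the listed H3K4me3 regions of all 4 lay toward the end of the window at which the gene starts. In RefSeq on build GRCm38.p6, Suz12 and Jarid2 run on the plus strand, and their H3K4me3 regions began 9.925 kb and 9.975 kb from the low end of the window. Ezh2 and Eed run on the minus strand, and their H3K4me3 regions ended 10.275 kb and, for the nearest of 3, 11.3 kb from the high end. The windows are 21.0 kb (Ezh2) to 23.0 kb (Suz12) longer than these genes are in GRCm38.p6. The start sites have no mm9 position here, so whether a region covers a start was not determined. Of the 5 genes, 4 matched the promoter table; Kdm6b did not. The sequences run 5′ to 3′ on the gene's strand and come from RefSeq, and their coordinates are on GRCm38.p6 and cannot be compared with the mm9 positions of the regions. Capitals mark matches to TTTGGCGC or TTTCCCGC (forms of the site of E2F, a factor of cell-cycle genes), or TGGGAA (core of the RBPJ site).
Ezh2, chr6:47594981-47595280, minus strand: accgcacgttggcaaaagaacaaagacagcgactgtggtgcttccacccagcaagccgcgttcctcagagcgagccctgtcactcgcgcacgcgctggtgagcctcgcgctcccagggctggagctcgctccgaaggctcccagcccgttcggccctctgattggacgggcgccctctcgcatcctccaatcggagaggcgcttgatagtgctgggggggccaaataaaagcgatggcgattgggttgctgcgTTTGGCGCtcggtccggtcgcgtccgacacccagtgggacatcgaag
Suz12, chr11:79992856-79993155, plus strand: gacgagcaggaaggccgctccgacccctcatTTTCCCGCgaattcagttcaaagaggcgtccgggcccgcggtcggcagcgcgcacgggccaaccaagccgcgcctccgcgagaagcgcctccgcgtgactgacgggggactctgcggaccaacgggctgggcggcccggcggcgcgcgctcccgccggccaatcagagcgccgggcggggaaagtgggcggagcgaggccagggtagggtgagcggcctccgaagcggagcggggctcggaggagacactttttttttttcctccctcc
Eed, chr7:89980927-89981226, minus strand: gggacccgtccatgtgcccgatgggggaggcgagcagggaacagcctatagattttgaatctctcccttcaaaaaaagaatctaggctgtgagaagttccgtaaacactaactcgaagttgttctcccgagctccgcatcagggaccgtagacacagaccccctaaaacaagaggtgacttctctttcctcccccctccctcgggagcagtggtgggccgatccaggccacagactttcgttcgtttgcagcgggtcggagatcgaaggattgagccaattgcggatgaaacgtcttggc
Jarid2, chr13:44730524-44730823, plus strand: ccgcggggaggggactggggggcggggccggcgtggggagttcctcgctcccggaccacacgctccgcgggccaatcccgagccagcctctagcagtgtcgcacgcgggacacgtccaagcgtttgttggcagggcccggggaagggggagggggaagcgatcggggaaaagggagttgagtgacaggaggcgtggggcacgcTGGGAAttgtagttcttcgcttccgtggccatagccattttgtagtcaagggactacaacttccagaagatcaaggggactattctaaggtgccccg

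All 4 promoters hold more CG dinucleotides, the sequence feature of CpG islands, than the table's median of 7 in 300 bases. Suz12 holds 41, which 3.46% of the 32851 promoters reach, and Ezh2 holds 31, which 10.6% reach. Jarid2 holds 24 at the start shown and 23 at a second start, which 20.0% and 21.5% of promoters reach. Eed holds 17, which 31.4% of promoters reach. Both strands were searched for 4 motifs that do not overlap each other in these promoters. Ezh2 has TTTGGCGC at bases 254 to 261 of its printed sequence, a motif in 0.514% of all promoters. Suz12 has TTTCCCGC at bases 32 to 39, a motif in 1.07% of all promoters. Jarid2 has TGGGAA at bases 204 to 209 at the start shown and no match at the second, and 25.6% of all promoters hold this motif. Eed holds none of the 4, and CCGGAAG (the core of an ETS factor site, in 8.86% of promoters) is in none of the PRC2 promoters. These matches describe letters and show no binding.

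H3K27me3 is the product of PRC2 itself, and its list held 0 regions of either colour in any of the 5 windows. The list has regions on all 4 chromosomes concerned. To give a background, the chromosomes were divided into adjoining tiles as long as each window, and 18.1% of tiles of the Ezh2 length, 15.0% of the Suz12 length, 12.5% of the Eed length, 32.4% of the Jarid2 length and 10.1% of the Kdm6b length held at least 1 H3K27me3 region. Among all tiles, a tile without one is thus the usual case. Among tiles that, like the 5 windows, held an H3K4me3 region, the shares were higher, at 36.6% for the Ezh2 length, 32.6% for Suz12, 29.0% for Eed, 52.3% for Jarid2 and 25.8% for Kdm6b. In this background a tile without an H3K27me3 region was still the more frequent case, except at the Jarid2 length.

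The nearest H3K27me3 regions outside the windows were far from 3 of the genes and close to 1. They lay 573.9 kb from the Jarid2 window (green), 357.6 kb from the Ezh2 window (red) and 306.375 kb from the Eed window (green). The nearest to Kdm6b was green, 1100 bp wide and 59.75 kb below its window. Suz12 had a red H3K27me3 region of 800 bp only 7.7 kb below its window, at chr11:79787501-79788300. That region adjoined, without sharing a base, a green H3K4me3 region of 875 bp at chr11:79786626-79787500. The 2 lists therefore gave opposite colours to adjacent stretches there.

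**Figure D1:**
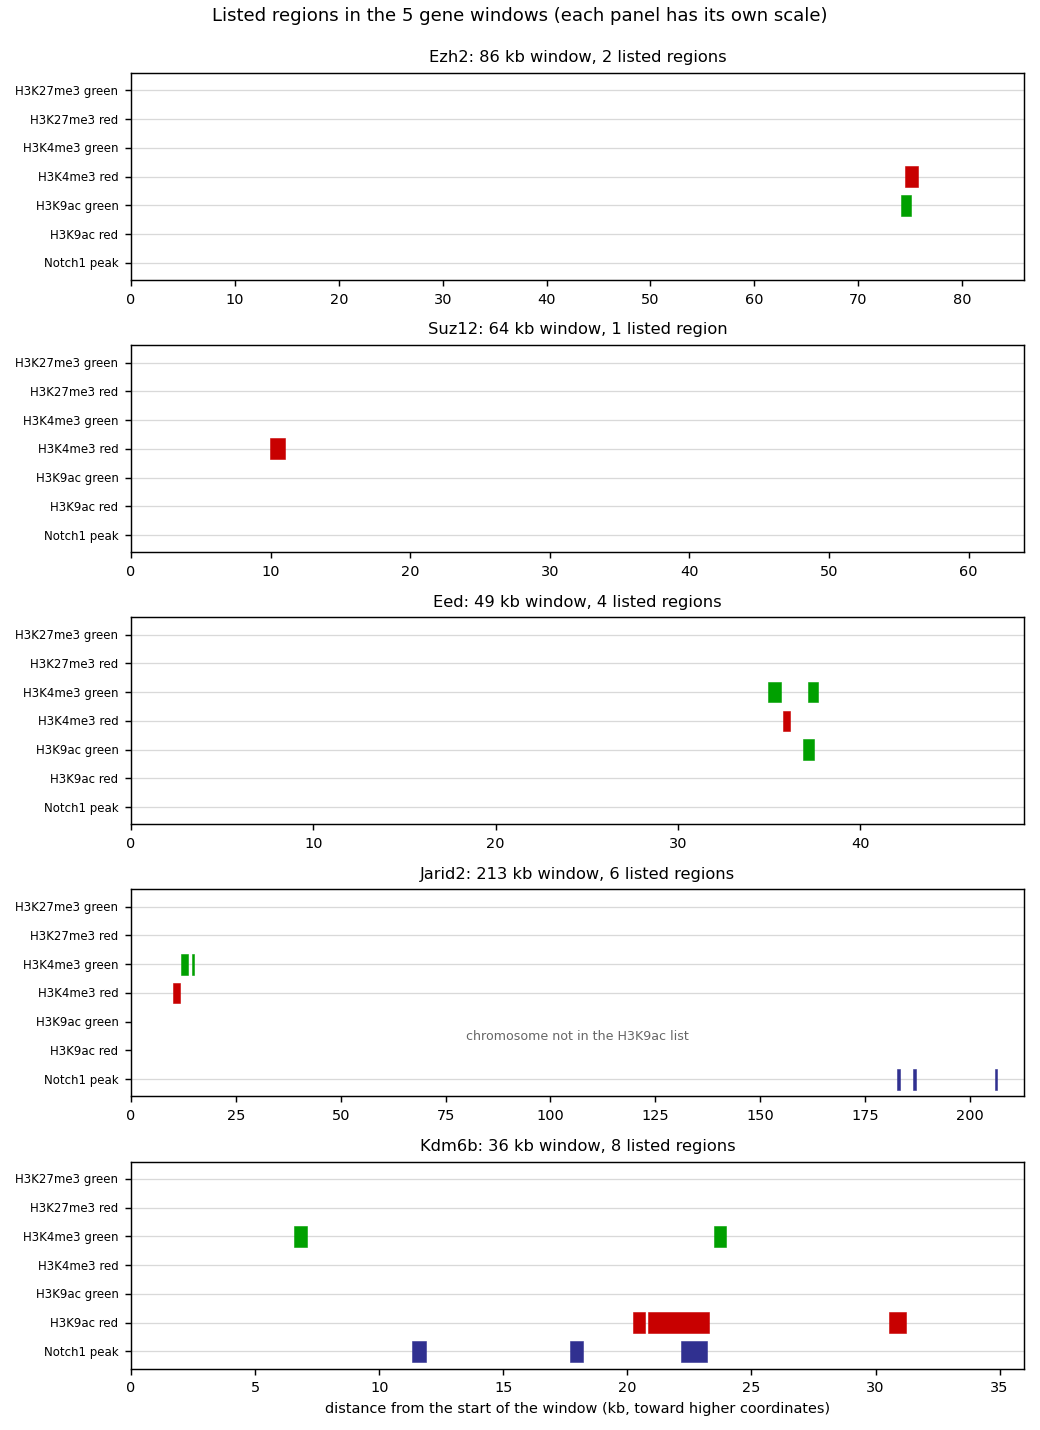
Listed regions in each gene's window, drawn to scale along the distance from the window's low-coordinate end in kb (x axis, a scale for each panel), with a row for each list and colour. The H3K27me3 rows are empty in all 5 panels, Kdm6b holds 8 regions, and the Jarid2 Notch1 peaks lie at the opposite end from its H3K4me3 regions.

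H3K4me3 was the only list with a region in all 5 windows, 6 green and 4 red. The H3K9ac list covers only 4 of the windows, so it could not have had one in each. An H3K4me3 region of either colour was in 12992 of 73248 tiles of the Kdm6b length and 6089 of 12371 of the Jarid2 length. Among regions at or above the list's median width, H3K4me3 was in 4 windows, because both Kdm6b regions are narrower. Red regions were present at all 4 PRC2 genes and not at Kdm6b, while green regions were present at Eed, Jarid2 and Kdm6b. Ezh2 and Suz12 thus held red only, Kdm6b green only, and Eed and Jarid2 both colours. A red H3K4me3 region was present in 12.15% of all tiles of the Kdm6b length. A green one was present in 19.2% of all tiles of the Ezh2 length and 15.26% of the Suz12 length. Among all tiles, the lack of the colour was thus the usual case for each of these genes. Every tile with a colour is also a tile with an H3K4me3 region. There were 12992 of these at the Kdm6b length, 9709 at the Ezh2 length and 10832 at the Suz12 length. Among those tiles the colour was present more often than absent, so its lack was not the usual case there. Shares for the colours present are given with each gene. With 1 to 3 regions a gene, this is a description of these rows and not a tested difference between genes.

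Ezh2, the catalytic subunit, had 1 red H3K4me3 region and 1 green H3K9ac region that shared bases. The H3K4me3 region lay at chr6:47544526-47545725 and was 1200 bp wide. The H3K9ac region lay at chr6:47544151-47545125 and was 975 bp wide, and the 600 bp they shared made up 50.0% of the first and 61.5% of the second. Both were broad for their class: 4.02% of red H3K4me3 regions and 7.98% of green H3K9ac regions were at least as wide, against a median of 625 bp in each class. A red H3K4me3 region was present in 23.1% of tiles of this length and a green H3K9ac region in 4.51%, or in 12.8% of tiles with an H3K4me3 region. The marks therefore differed in colour over the same bases, and whether they differed in direction is not known. Over the whole H3K9ac list, 290 of 952 green regions (30.5%) met a red H3K4me3 region and 462 (48.5%) a green one. The Ezh2 window held 0 Notch1 peaks, where 22.8% of all tiles and 46.6% of tiles with an H3K4me3 region held at least 1, and the nearest peak was 213.85 kb above it. The coding gene Cul1 lies within 10 kb of Ezh2 in GRCm38.p6, so part of the window can belong to it.

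Suz12, the core subunit needed for a stable complex, had the fewest regions. Its 1 region was red H3K4me3 at chr11:79805926-79807025, 1100 bp wide, a width that 5.76% of red regions reach. Such a region was present in 18.8% of tiles of 64 kb. The window held 0 H3K9ac regions, where 6.24% of tiles on the chromosomes of that list, and 20.5% of those with an H3K4me3 region, held 1 or more of either colour. The nearest was green and 42.625 kb above. It also held 0 Notch1 peaks, where 18.9% of all tiles and 42.8% of tiles with an H3K4me3 region held at least 1. The nearest peak was 108.05 kb above the window. As at Ezh2, the window held a broad red stretch of H3K4me3 and no green one.

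Eed, the subunit that reads H3K27me3, had 4 regions within 2.775 kb, with a red H3K4me3 region between green ones. From low to high coordinates these were a green H3K4me3 region at chr7:97127926-97128650 (725 bp), a red H3K4me3 region at chr7:97128776-97129150 (375 bp), a green H3K9ac region at chr7:97129851-97130450 (600 bp) and a green H3K4me3 region at chr7:97130151-97130700 (550 bp). The red region lay 125 bp from the green one below it and 1000 bp from the green one above it. The green H3K9ac region shared 300 bp with the upper green H3K4me3 region, 50.0% of the former and 54.5% of the latter. Here, unlike at Ezh2, the 2 active marks had the same colour where they met, and whether they had the same direction is not known. In tiles of the Eed length, 12.4% held a green and 15.5% a red H3K4me3 region, and 2.66% held a green H3K9ac region (10.5% of tiles with an H3K4me3 region). The red region is narrow for its class, since 93.7% of red H3K4me3 regions are at least as wide. No Notch1 peak lay in the window, where 15.8% of all tiles and 39.1% of tiles with an H3K4me3 region held at least 1, and the nearest was 108.325 kb below.

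Jarid2, the accessory subunit, had the broadest red and the broadest green H3K4me3 region of the 5 genes, and 125 bp separated them. A red region at chr13:44824976-44826675 was 1700 bp wide, a width that 75 of 11160 red regions (0.67%) reach. A green region followed after 125 bp, at chr13:44826801-44828675, and was 1875 bp wide, a width that 2.84% of green regions reach. A second green region of 600 bp lay 800 bp further, at chr13:44829476-44830075. The mark thus had 1 colour on one side of a gap of 125 bp and the other colour on the far side, over a stretch that began 9.975 kb into the window. In tiles of 213 kb, 34.5% held a green and 39.0% a red H3K4me3 region. Chromosome 13 is not among the 11 chromosomes in the H3K9ac list, so H3K9ac at Jarid2 was not analysed here.

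The switch of colour between neighbouring H3K4me3 regions was seen at Eed and Jarid2 and is not rare in the list. Over all 5 windows, 4 of 10 H3K4me3 regions had a region of the other colour within 125 bp, all at Eed or Jarid2. In the whole list 1384 of 21402 (6.47%) did. Within 1 kb the counts were 5 of 10 and 3708 of 21402 (17.3%). The regions of a pair are counted together, so these 4 are 2 pairs. The gap of 125 bp was the smallest in the windows and was set after it had been seen.

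**Figure D2:**
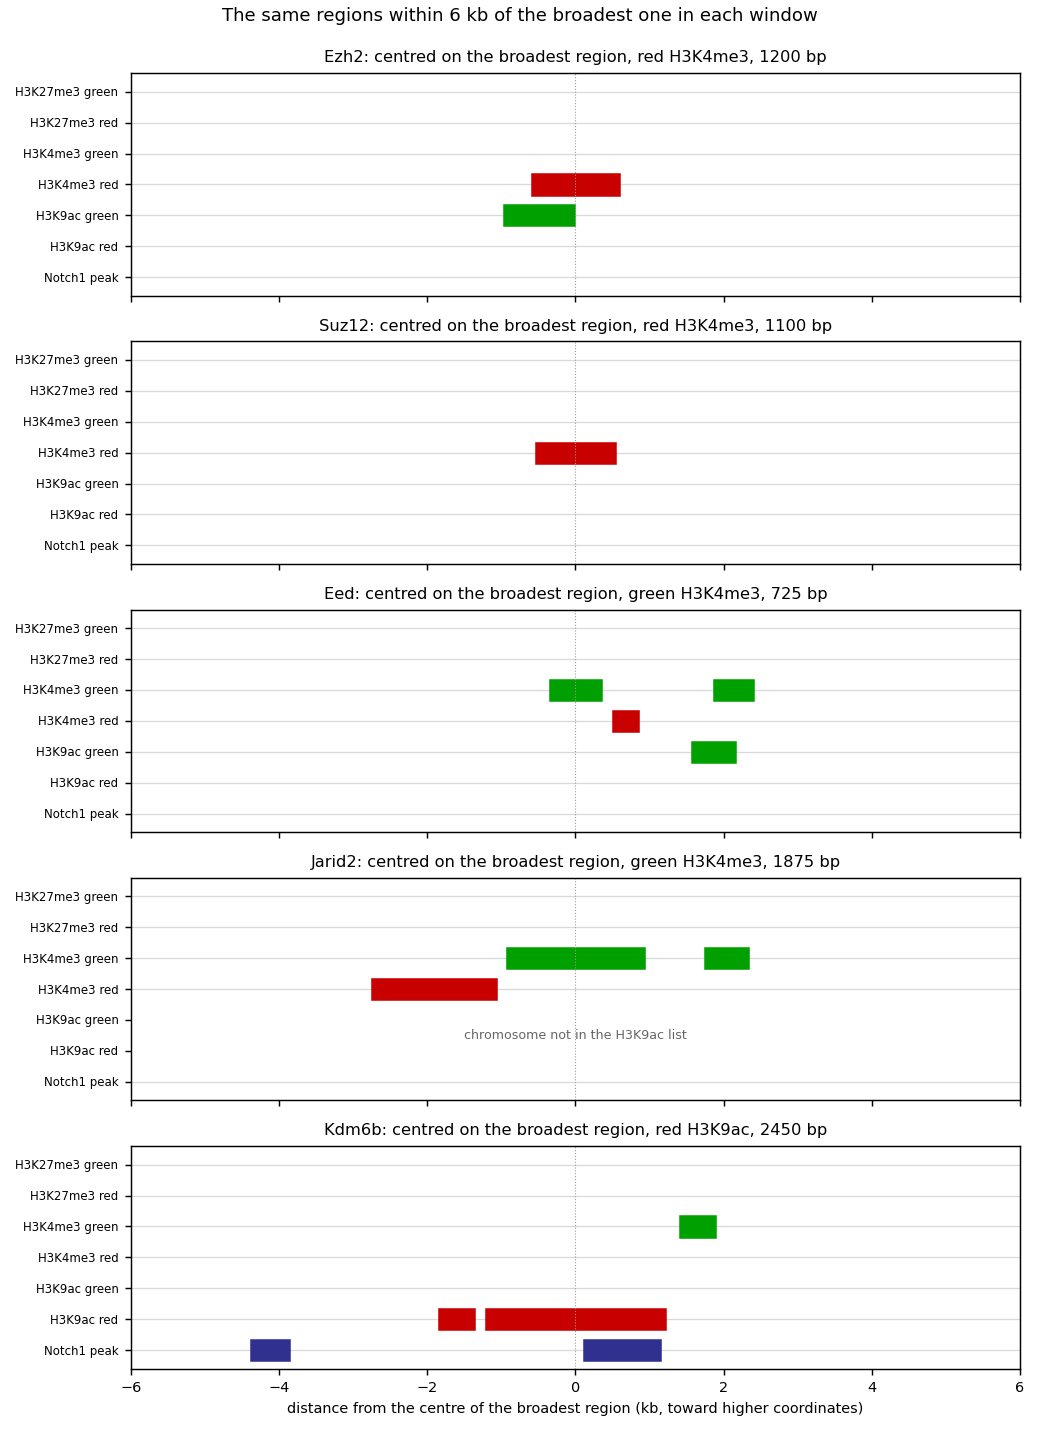
Regions within 6 kb of the centre of the broadest region in each window, to scale (x axis, kb), with a row for each list and colour. Red H3K4me3 and green H3K9ac share bases at Ezh2, a red H3K4me3 region lies between green ones at Eed and beside green ones at Jarid2, and at Kdm6b a Notch1 peak lies inside a red H3K9ac region of 2450 bp.

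Kdm6b, the demethylase that opposes PRC2, had the most regions in the smallest window, from 3 of the lists. The share of tiles with as many regions over all lists was not computed, so this ranking of the genes has no background. Its H3K9ac regions were all red and its H3K4me3 regions all green. The red H3K9ac regions lay at chr11:69222226-69222725 (500 bp), chr11:69222851-69225300 (2450 bp) and chr11:69232551-69233225 (675 bp). The middle region is among the 5 broadest of the 926 red H3K9ac regions (0.54% are at least as wide), and 125 bp separated it from the one below. Of tiles of 36 kb on the chromosomes of that list, 1.91% held a red H3K9ac region, and of those with an H3K4me3 region 8.84% did. The green H3K4me3 regions lay at chr11:69208576-69209100 (525 bp) and chr11:69225476-69225975 (500 bp), and 9.72% of tiles of this length held 1 or more. The upper green H3K4me3 region began 175 bp beyond the end of the broad red H3K9ac region and shared no base with it.

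The Kdm6b window held 3 Notch1 peaks. They were at chr11:69213326-69213900 (575 bp), chr11:69219676-69220225 (550 bp) and chr11:69224176-69225225 (1050 bp). The last is broad for the list, with 5.29% of 14569 peaks at least as wide. It lay wholly inside the red H3K9ac region of 2450 bp, of which it covered 42.9%, and ended 250 bp before the upper green H3K4me3 region. On the chromosomes of the H3K9ac list, 20 of 9030 peaks (0.221%) shared bases with a red H3K9ac region and 5 lay wholly inside one. The other 2 peaks met no histone region: the nearest was 4.225 kb away for the first (green H3K4me3) and 2.0 kb for the second (red H3K9ac). A tile of this length held at least 1 peak in 12.8% of cases and at least 3 in 1.76%. Among tiles with an H3K4me3 region these shares were 35.2% and 7.44%. The neighbourhood was also rich in peaks, with 8 more within 100 kb of the window and the closest 20.0 kb above it. Cyb5d1, Naa38, Tmem88 and Dnah2 lie within 10 kb of Kdm6b in GRCm38.p6, so a region of this window need not belong to Kdm6b.

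Jarid2 was the other gene with Notch1 peaks, and they lay far from its H3K4me3 regions. The 3 peaks were at chr13:44997601-44998375 (775 bp), chr13:45001551-45002250 (700 bp) and chr13:45020876-45021450 (575 bp), from 182.6 to 205.875 kb into the window. The gap between the closest H3K4me3 region of the window and the first peak was 167.525 kb. Since Jarid2 runs on the plus strand, these peaks were on the side of its end. None shared bases with an H3K4me3 or H3K27me3 region, and H3K9ac was not analysed on this chromosome. The nearest region of those 2 marks to each peak was a narrow red H3K4me3 region of 250 bp beyond the window, 75.85 to 98.925 kb away. Tiles of 213 kb held at least 1 peak in 38.3% of cases and at least 3 in 14.0%. Among tiles with an H3K4me3 region the shares were 61.6% and 27.0%, so that a peak is the usual case there. Dtnbp1 lies within 10 kb of Jarid2 in GRCm38.p6.

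Across the 5 genes, 1 of 6 Notch1 peaks (16.7%) shared bases with a histone region, against 4799 of 14569 (32.9%) in the whole list. With 6 peaks from 2 loci this difference was not tested. The 3 Jarid2 peaks could meet only H3K4me3 or H3K27me3 regions, because chromosome 13 is not in the H3K9ac list. The 1 overlap counted was with an H3K9ac region, at Kdm6b. Peaks of the whole list on other chromosomes missing from the H3K9ac list had the same limit. The 3 core subunits Ezh2, Suz12 and Eed had no peak, and the nearest to each window was between 108.05 and 213.85 kb away. At least 1 peak was in 22.8%, 18.9% and 15.8% of all tiles of these lengths. Among tiles with an H3K4me3 region the shares were 46.6%, 42.8% and 39.1%. A window of these lengths without a peak is thus the usual case.

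**Figure D3:**
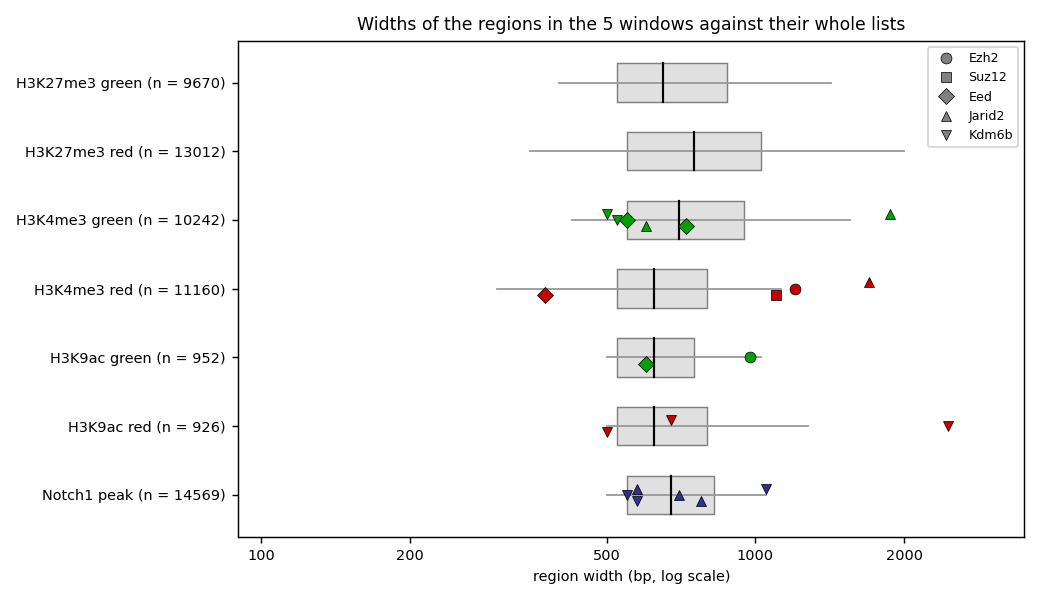
Width of each region in the windows (symbols by gene, bp on a log scale) against its whole list and colour, shown as the median (line), the middle 50% (box) and the 5th to 95th percentiles (whisker). Beyond the whiskers lie the red H3K9ac region of 2450 bp at Kdm6b, the red H3K4me3 regions of 1700 bp at Jarid2 and 1200 bp at Ezh2, and the green H3K4me3 region of 1875 bp at Jarid2.

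The widths of the H3K4me3 regions varied over a wide range. Of the 4 red H3K4me3 regions, those of Jarid2, Ezh2 and Suz12 were 1700, 1200 and 1100 bp wide, where the class has a median of 625 bp, and that of Eed was 375 bp. Of the 6 green H3K4me3 regions, that of 1875 bp at Jarid2 and that of 725 bp at Eed were above the class median of 700 bp, and the other 4 measured 500 to 600 bp. The green class has its 5th percentile at 425 bp. Width is not a measure of the size of a change.

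**Figure D4:**
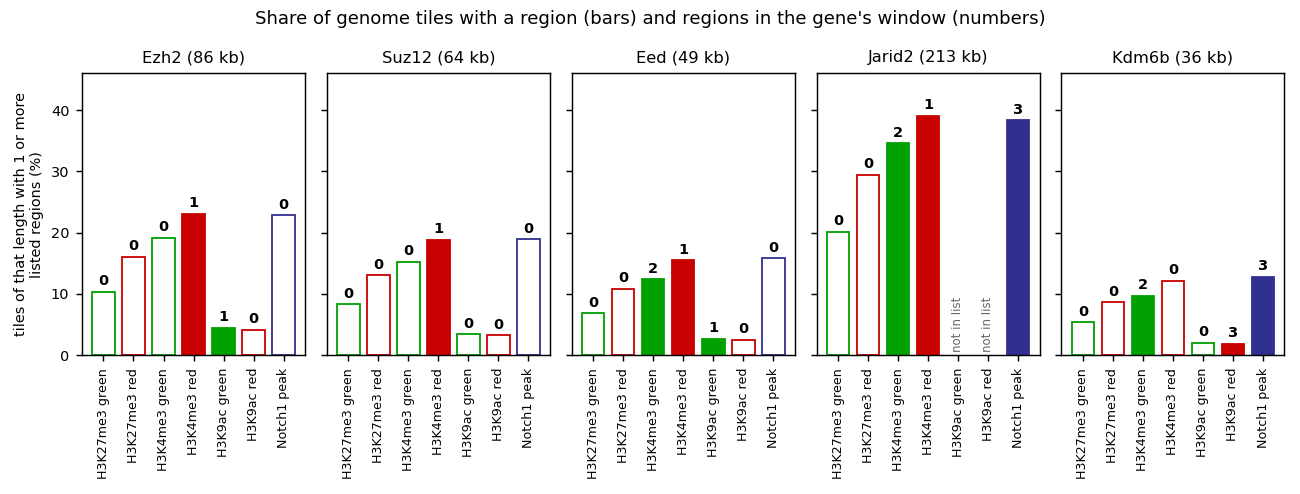
Share of genome tiles as long as each window that hold 1 or more regions of a list and colour (bars, percent, from 0), with the number of regions in the gene's own window printed above. Bars are filled where the window holds a region. The Kdm6b window has 3 red H3K9ac regions. At least 1 is in 1.91% of tiles of its length and in 8.84% of those with an H3K4me3 region. The share with 3 or more was not computed.

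The windows were placed on genes and the tiles were not. For the H3K27me3, H3K9ac and Notch1 classes compared here, shares were higher in tiles that held an H3K4me3 region than in all tiles. Shares around genes were not computed.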

How the data were processed

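The submitters' processing notes name BWA and the builds NCBIM37 and mm9. Per the labels' protocols, single-end reads came from chromatin cut with micrococcal nuclease for histone marks and sonicated for Notch1. For the region caller, its thresholds, the use of inputs and the combining of replicates, nothing is given in the sources used here. As deposited, there are 4 BED lists whose score is 1000 in every row and so carries no measurement, and all starts and widths are multiples of 25 bp. Used were positions, given here with 1-based starts, and the display colours. The planned edgeR fit was not made because the lists hold no counts. Replicates enter only as the authors combined them.

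A region counted as a member when it shared 1 bp or more with a window, and every member is named with its position. Tiles ran from each chromosome's start to its last listed region in any list. Counts in tiles and windows were tested on simulated lists in which each region lay inside 1 tile. Overlaps between lists were not tested in this way. The genes and windows were chosen with earlier results of these data known, and tiles holding an H3K4me3 region were added after seeing the data. The other genes of the pathway (Ezh1, Rbbp4, Kdm6a and others) were not placed, because the gene table is on GRCm38.p6. Python 3.11.15, pandas 2.3.3 and matplotlib 3.10.9 were used.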

Additional observations from a re-analysis of the deposited data

How the results depend on the processing

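The counts of regions in the windows were repeated with 5 settings: regions at or above their list's median width, 50% of a region inside the window, regions within 1 kb merged, and windows narrowed or widened by 5 kb. H3K27me3 stayed at 0 in both colours under all 5. The median-width setting lowered green H3K4me3 from 6 to 2, green H3K9ac from 2 to 1 and Notch1 peaks from 6 to 3, because narrow regions were removed. It also lowered red H3K4me3 from 4 to 3 and red H3K9ac from 3 to 2. By gene, it lowered H3K4me3 at Kdm6b from 2 to 0, at Eed from 3 to 1 and at Jarid2 from 3 to 2. H3K9ac fell at Eed from 1 to 0 and at Kdm6b from 3 to 2, and Notch1 peaks at Kdm6b from 3 to 1 and at Jarid2 from 3 to 2. The other 4 settings moved no list's count by over 1.5 times. Counting histone regions within 1 kb of a Notch1 peak gave 2 in place of the 1 that shares bases, and requiring 50% of the peak to be covered left it at 1. No paired analysis was possible because single libraries have no values in these files, which also kept any replicate from being left out. Depth limits every absence here, since no coverage is given.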
